A study of Gallus gallus with 5 samples.

Results

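The lnc3500 knockdown library was compared with wild type over every gene whose mean FPKM was 1 or more across the 5 libraries of the series, which took 11031 of the 17108 genes in the table. The tissue was the chicken wing, whose flight feathers were regrowing, and each library pooled 5 of its follicles. The labels give feather follicle as the tissue and dermal papilla as the source. Wild type had 2 libraries, titled as repeats of T4, a tag that no other title carries and that the labels leave unexplained. The lnc3500 knockdown had 1 library, and the vector for knockdowns in the follicle was the lentivirus pLL3.7, per the design text. The same text gives the lentivirus pLVX-Zsgreen for overexpression, which applies to the Wnt5a overexpression library (n = 1). The remaining library was a second knockdown, of lnc7831 (n = 1). All follicles, wild type included, had been plucked so that a feather regrew. No library with an empty vector is named, so the vector, the T4 tag and the knockdown cannot be told apart. The sources used here give neither strain, age and time after plucking nor the share of cells that carried vector.

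A feather follicle is an epidermal tube wrapped around a mesenchymal core. The dermal papilla at its base is the signalling centre that starts each new feather, and it exchanges WNT, FGF, BMP and hedgehog signals with the epidermis that builds the barbs. The follicle wall and the pulp also hold fibroblasts, smooth muscle, blood vessels, pigment cells and leukocytes, so a dissected follicle gives a mixed RNA sample.

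The table names no gene lnc3500, so the knockdown itself was not measured and the library is called by its label. Values were FPKM, fragments scaled to transcript length and library size, and the read depth behind them is unknown. As deposited, 90.1% of the tested genes were higher in the knockdown library than in the wild-type mean, with a median difference of 0.56 on the log2(FPKM + 1) scale. The libraries were therefore centred, each by the median over genes of its ratio to the 5-library geometric mean, and all values below are such centred FPKM. Differences are log2 differences of centred FPKM + 1 from the wild-type mean, and they understate the size for low genes. Standard errors (SE) come from limma. They combine a gene's spread between the 2 wild-type libraries with variance borrowed from other genes, so they are not that gene's own spread. Wild-type library 1 is always given first. The keratinocyte markers CDH1 and KRT14 and the mesenchymal markers COL1A2 and PRRX1 were all present in the knockdown library, at 150.4, 3203, 2442 and 623 FPKM. Epidermal and mesenchymal genes were thus both measured in the sample labelled dermal papilla. After centring, the actin gene ACTB had 3434 and 3308 FPKM in wild type and 4594 in the knockdown library, the highest of the 5. Its difference was 0.45 (SE 0.42).

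Few genes lay far from both wild types. In the knockdown library 158 genes (1.43% of those tested) were 2-fold or more above both wild-type libraries and 181 (1.64%) were 2-fold or more below both. The wild-type libraries stood 2-fold or more apart from each other in 1331 genes, with 929 (8.42%) higher and 402 (3.64%) lower in library 2. Against wild-type library 1 alone the knockdown library was at least 2-fold higher in 1008 genes (9.14%) and lower in 476 (4.32%), and against library 2 alone in 346 (3.14%) and 451 (4.09%). The median absolute difference was 0.37 from library 1 and 0.27 from library 2, beside 0.36 between the wild types. The typical gene thus stood about as far from library 1, and less far from library 2, as the wild types did from each other. limma called 0 genes (0%) at an adjusted p below 0.05, and the smallest adjusted p was 0.132. At an unadjusted p below 0.05 it took 340 genes (3.08%). All differences below are therefore descriptions of 1 library, with no gene past the test. With values as deposited the size rule took 901 genes above and 87 below, so that 91.2% of the genes past it were higher, against 46.6% after centring.

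**Figure D1:**
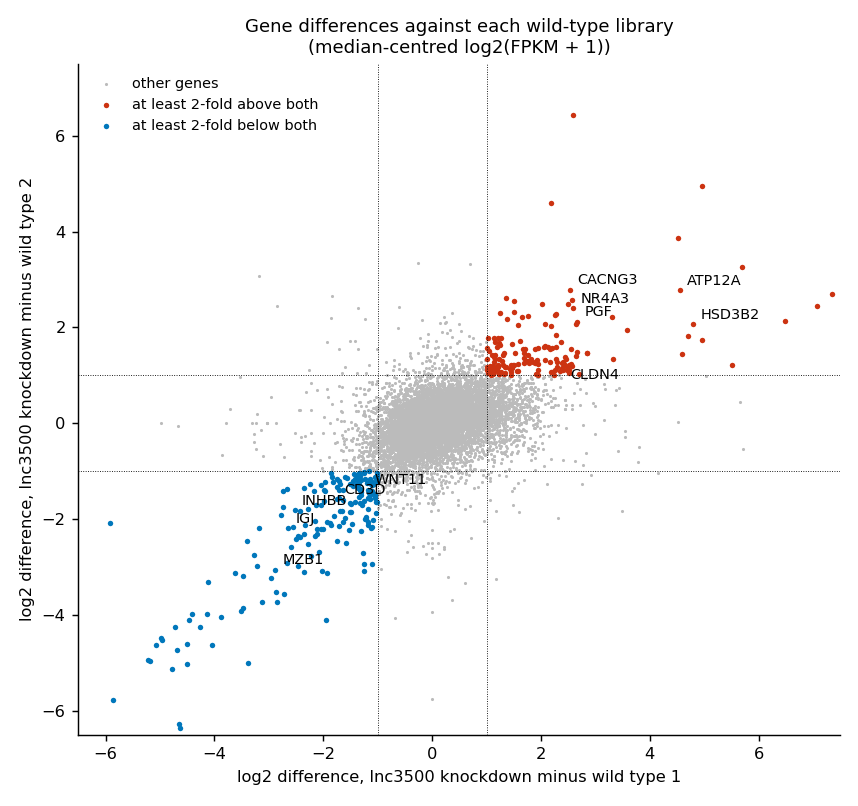
Log2 difference of each of the 11031 tested genes in the lnc3500 knockdown library from wild type 1 (horizontal axis) and from wild type 2 (vertical axis), on the median-centred log2(FPKM + 1) scale. Dotted lines mark 2-fold, red points are the 158 genes 2-fold or more above both wild types and blue points the 181 2-fold or more below both; named genes are among those described in the text.

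Genes listed at 0 made up a large share of the lower side. Of the 181 lower genes 60 had a 0 in some library, as did 182 of all 11031. At 0 in the knockdown library and above 0 in both wild types were 53 tested genes, and 52 of them were among the lower genes. Of these, 33 were at 0 in all 3 treated libraries, and they were all the tested genes of that kind. Such genes pass the filter on mean FPKM only through their wild-type values, so their place on the lower side was largely fixed beforehand. Of the 158 higher genes 23 were listed at 0 in some library. Entries that share a gene name with another entry made up 25 of the 181 lower genes and 105 of all 11031. A 0 may stand for a failed estimate rather than for absence. The higher genes nearest the 2-fold limit lay 1.0002 and 0.9997 log2 units from the nearer wild type and the lower ones 1.002 and 0.9999, so the counts have no natural edge there. Genes averaging 100 FPKM or more passed the rule upwards in 3.19% of 847 and downwards in 0.945%, whereas those averaging 1 to 5 FPKM passed it in 1.51% and 3.50% of 2514.

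The 42 gene lists used below cover the cell types and pathways of the follicle. Over all tested genes the knockdown library was above both wild types by any amount in 31.9% and below both in 32.2%, and these shares are the background for each list. Against the wild-type mean, the highest medians were those of alpha keratins, of desmosome genes and of the list of serine, one-carbon and ATF4 genes. The lowest were those of T cell, B cell and interferon-stimulated genes. The order depended on the wild type, since against library 2 alone cornified envelope genes were highest (1.14) and myeloid and B cell genes lowest (both -1.14). Of the 42 medians 16 had opposite signs against the 2 wild types. limma called 0 members of any list.

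**Figure D2:**
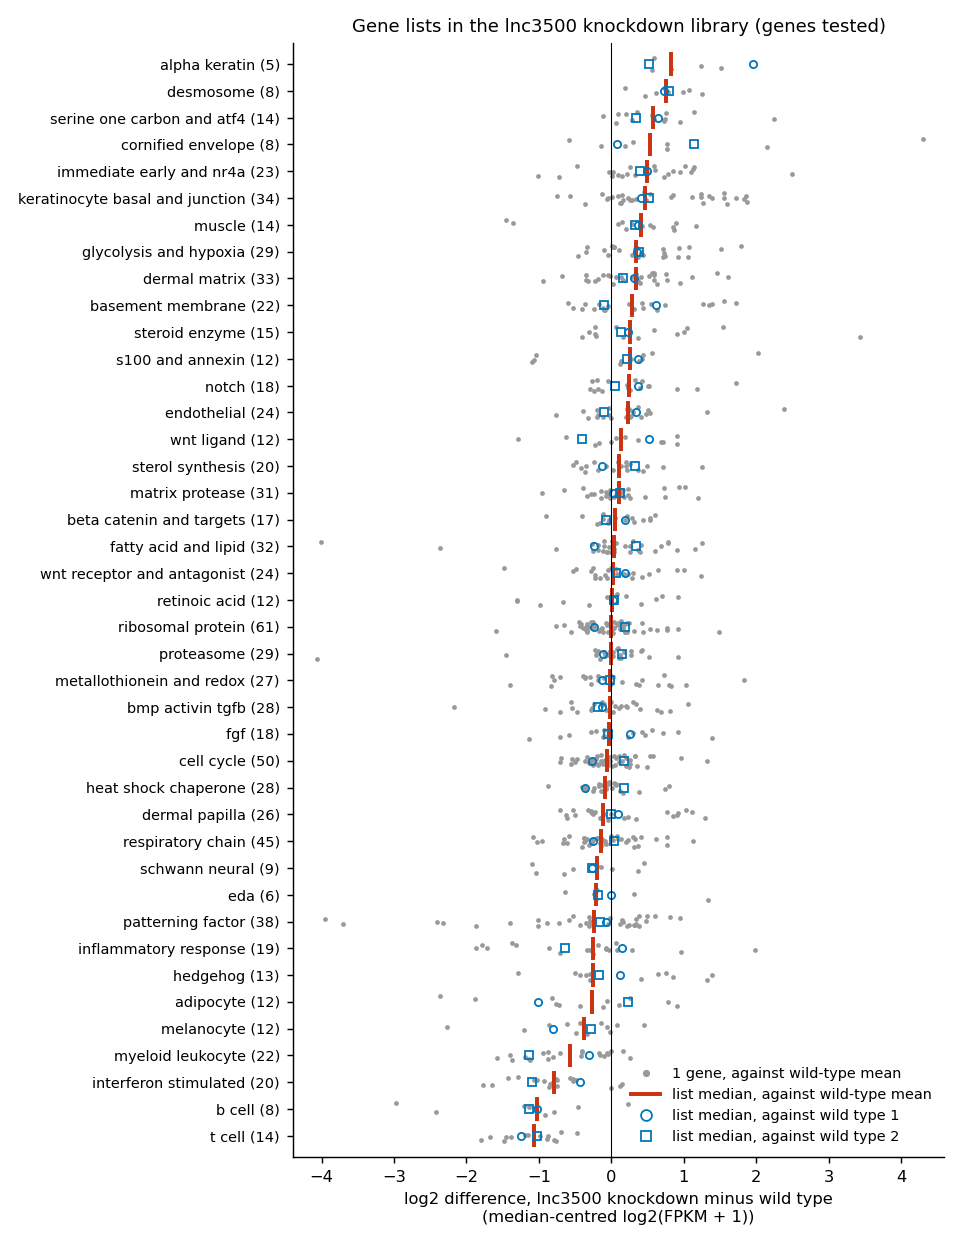
Difference of the lnc3500 knockdown library from wild type for each list of at least 5 tested genes (number tested in brackets), on the median-centred log2(FPKM + 1) scale. Grey points are genes against the wild-type mean, red bars list medians, and blue open circles and squares the list medians against wild type 1 and wild type 2 alone; T cell genes all lie below 0, and desmosome genes all above.

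Keratinocyte genes were mostly above the wild-type mean. Of 34 genes of basal keratinocytes and their junctions, 5 were 2-fold or more above both wild types and 0 below, and 19 were above both by any amount, with 3 below both. Above the wild-type mean were 28 of the 34, against 49.7% of all genes. The other 6 lay below the wild-type mean, with a lowest difference of -0.75. Their median difference was 0.47, and it was 0.41 and 0.52 against wild-type libraries 1 and 2 alone. The wild types themselves differed by a median of 0.46 over these genes, about as much, with library 2 higher. The summed level of the list was 3628 and 4757 FPKM in wild type and 7080 in the knockdown library, beside 8306 in Wnt5a overexpression and 7357 in lnc7831 knockdown. PROM2, a membrane glycoprotein of epithelial protrusions, had 30.6 and 48.0 FPKM in wild type and 144 in the knockdown library, a difference of 1.88 (SE 0.46). CDH1 (ENSGALG00000000608), which encodes the cadherin of epithelial adherens junctions, had 41.2 and 61.3 FPKM in wild type and 150.4 in the knockdown library, and 143 and 108 in Wnt5a overexpression and lnc7831 knockdown. All 3 treated libraries were thus above both wild types for CDH1. ITGA6, the integrin chain that anchors basal cells at hemidesmosomes, had 21.5 and 16.1 against 50.1 FPKM (1.38, SE 0.38). The tight junction gene CLDN4 had 9.34 and 21.7 against 53.7, and there lnc7831 knockdown, at 16.4, lay between the wild types. The epithelial transcription factor ELF3 was low everywhere, with 0.949 and 1.80 FPKM in wild type and 7.46 in the knockdown library. These 5 genes were named for passing the 2-fold rule, so they lie above both wild types by choice. TP63, the master regulator of stratified epithelium, was chosen after its values were seen. It had 16.2 and 27.2 against 51.0 FPKM and stayed under the 2-fold limit from library 2.

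All 8 desmosome genes tested were above both wild types, 2 of them by at least 2-fold, and their median difference was 0.75. Desmosomes are the plaques that tie keratinocytes to each other. JUP (ENSGALG00000017414), which encodes the plaque protein plakoglobin, had 452 and 510.1 FPKM in wild type and 1149.7 in the knockdown library, a difference of 1.26 (SE 0.42). PKP3, a plakophilin of the same plaque, had 27.6 and 29.3 against 61.1 FPKM (1.08, SE 0.35). The wild types were close to each other for both genes. The remaining 6 included PKP1 at 238 and 225 against 460.1 FPKM, DSP, the desmoplakin gene, at 380.1 and 292 against 461, and PERP at 318 and 269 against 450.1. The list had the same direction against each wild type alone, with medians of 0.73 and 0.79. Its median was 1.09 in Wnt5a overexpression and 0.02 in lnc7831 knockdown. None of the 8 was above all 4 other libraries.

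Genes of late epidermal differentiation depended on the wild-type library. The 8 cornified envelope genes tested had a median difference of 0.54, but 0.08 against wild-type library 1 and 1.14 against library 2. SPINK5, a protease inhibitor of the outer epidermis, was listed at 0 in wild-type library 1 and had 19.5 FPKM in library 2 and 88.5 in the knockdown library, with 88.1 and 32.7 in Wnt5a overexpression and lnc7831 knockdown. The transglutaminase gene TGM6 had 0.433 and 2.73 FPKM in wild type and 9.24 in the knockdown library. CSTA, a protease inhibitor of the envelope, lay between the wild types, with 8355 and 802 against 1732. Of 5 alpha keratins 4 were above both wild types and 0 passed 2-fold, with medians of 1.95 and 0.53 against libraries 1 and 2. KRT14, the basal keratin, had 827 and 2222 against 3203 FPKM, so the wild types differed more from each other than library 2 did from the knockdown library. S100A16, a small calcium-binding protein, had 1811 and 2902 FPKM in wild type, 9369 in lnc3500 knockdown (2.03, SE 0.52), 11579.8 in Wnt5a overexpression and 7401 in lnc7831 knockdown. The more abundant S100A10 was at 73959.6 and 54412 against 93583.

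T cell genes were lower throughout, and all 14 tested were below the wild-type mean, as were 50.2% of all genes. Of these, 5 were 2-fold or more below both wild types, 13 were below both by any amount and 0 were above both, and the median difference was -1.07 (-1.24 and -1.02 against libraries 1 and 2). The summed level was 169.6 and 156 FPKM in wild type, 56.6 in lnc3500 knockdown, 63.3 in Wnt5a overexpression and 94.8 in lnc7831 knockdown, so lnc3500 knockdown was the lowest of the 5. In such mixed tissue fewer cells of a type and less RNA per cell cannot be told apart. CD3D (ENSGALG00000007418), a chain of the T cell receptor complex, had 55.7 and 49.2 FPKM in wild type against 15.8 in the knockdown library, a difference of -1.67 (SE 0.34). Its partner chain CD3E had 20.1 and 14.8 against 5.54 (-1.48, SE 0.36). The coreceptor gene CD4 of helper cells had 4.02 and 3.58 FPKM against 0.835, and CD8A, of cytotoxic cells, had 9.15 and 4.80 against 1.81. CD3D, CD3E, CD4 and CD8A were named for passing the 2-fold rule, so all lie below both wild types by choice. GZMA, a protease of cytotoxic granules, had 10.6 and 5.88 against 1.57, and PRF1, which forms pores in target cells, had 2.38 and 1.39 against 0.275. GZMA was named by the same rule, and CD4 and PRF1 were below 1 FPKM in the knockdown library. These genes therefore give no separate result for helper and cytotoxic cells. Of the 14 genes 8 were below all 4 other libraries, against a background of 15.3% of all genes. For CD3D the margin was small, since Wnt5a overexpression had 16.1 FPKM. CYTIP, a scaffold protein of lymphocytes outside the list, had 9.10 and 11.02 FPKM in wild type, 3.22 and 5.67 in the other treated libraries and 1.78 in lnc3500 knockdown.

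B cell and plasma cell genes were also lower, in 7 of 8 below both wild types and in 2 by at least 2-fold. MZB1 (ENSGALG00000025926), a chaperone of antibody-secreting cells, had 36.3 and 41.2 FPKM in wild type and 4.06 in the knockdown library, a difference of -2.97 (SE 0.31). IGJ encodes the chain that joins antibody polymers and had 120.5 and 87.6 FPKM against 18.4 (-2.42, SE 0.39). Wnt5a overexpression and lnc7831 knockdown were lower still for both genes, at 1.43 and 1.95 FPKM for MZB1 and 7.39 and 16.2 for IGJ. MZB1 and IGJ were named for passing the 2-fold rule, so they lie below both wild types by choice.

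Myeloid genes were mostly below the wild-type mean, in 20 of 22 tested, against 50.2% of all genes. Of the 22, 4 were 2-fold or more below both wild types, 14 were below both, 0 were above both and 12 were below all 4 other libraries. The median was -0.56, and -0.31 and -1.14 against libraries 1 and 2, but it was 0.06 with values as deposited. SPI1 (ENSGALG00000008127), the transcription factor PU.1 of myeloid and B cells, had 15.3 and 26.0 FPKM in wild type, 12.6 and 14.7 in Wnt5a overexpression and lnc7831 knockdown, and 5.997 in lnc3500 knockdown (-1.58, SE 0.45). PTPRC, the pan-leukocyte marker CD45, had 12.9 and 14.1 against 4.61 FPKM, and RAC2, a GTPase of blood cells, 35.5 and 40.9 against 13.8. NCF4, a subunit of the phagocyte oxidase, had 3.15 and 3.57 against 0.899. These 4 genes were named for passing the 2-fold rule, so they lie below both wild types by choice. Several genes typical of tissue macrophages, chosen after their values were seen, lay between the wild types instead. C1QA had 49.2 and 123 FPKM in wild type and 74.7 in the knockdown library, MPEG1 20.8 and 95.2 against 39.9, and MARCO 7.08 and 11.99 against 11.3. The summed myeloid level, at 656 FPKM, was inside the wild-type range of 638 to 1258.

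Interferon-stimulated genes were lower as well, with 16 of 20 below both wild types, 3 of them by at least 2-fold, and 12 below all 4 other libraries. Their median was -0.79, and -0.43 and -1.10 against libraries 1 and 2, which themselves differed by 0.83. EPSTI1 had 10.8 and 21.8 FPKM in wild type and 3.79 in the knockdown library. DTX3L, a ubiquitin ligase, had 13.8 and 11.4 against 4.53. BF1, a chicken MHC class I heavy chain, had 348 and 728 FPKM in wild type, 161 in lnc3500 knockdown, 181 in Wnt5a overexpression and 238 in lnc7831 knockdown. ISG12(2), an interferon-induced gene outside the list, spread widely, with 72.6 and 325 FPKM in wild type and 18.0 in the knockdown library, below all other libraries. These 4 genes were named for passing the 2-fold rule, so they lie below both wild types by choice. The lower wild type was library 1 except for DTX3L. Leukocyte markers were lower in the same library, and their part in the interferon list was not tested.

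Among 19 inflammatory genes 3 were 2-fold or more below both wild types, and the list median depended on the wild type (0.15 against library 1 and -0.65 against library 2). SOCS1, the feedback inhibitor of cytokine receptors, had 13.8 and 13.2 FPKM in wild type and 4.84 in the knockdown library (-1.31, SE 0.30). Ex-FABP, a chicken lipocalin that binds fatty acids and siderophores, had 98.3 and 159 against 33.4. The chemokine CCL4 has 2 entries in the table, which may share reads. One (ENSGALG00000000956) had 12.7 and 20.3 FPKM against 3.97 and passed the rule, and the other (ENSGALG00000000951) had 42.1 and 9.63 against 5.54. CISH, an inhibitor of the same family as SOCS1, was the gene farthest in the other direction, at 9.09 and 50.4 FPKM against 89.5, with the wild types 2.35 log2 units apart.

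Smooth muscle genes were the list with most members above every other library. Of 14 muscle genes tested 11 were above all 4 other libraries, against 13.2% of all genes, although 0 of them were 2-fold above both wild types. The 11 were ACTA1, ACTG2, LMOD1, MYH11, MYL9, MYLK, PDGFRB, RGS5, SMTN, SYNM and TAGLN, genes of smooth muscle cells and pericytes except for ACTA1, the skeletal alpha-actin. Actin genes are so alike that reads may be shared between them. TAGLN, an actin-binding protein of smooth muscle, had 901 and 1774 FPKM in wild type, 2302 in lnc3500 knockdown, 1595 in Wnt5a overexpression and 1288 in lnc7831 knockdown. SMTN, or smoothelin, had 43.6 and 51.9 FPKM in wild type and 89.5 in the knockdown library, a difference of 0.90 (SE 0.37). MYL9, the regulatory light chain of myosin, had 175 and 225 against 289.7, and MYH11, its heavy chain, 196 and 191 against 235. The lead was slim for several members, such as SYNM at 12.3 and 11.001 against 12.5 and MYLK, the light chain kinase, at 91.7 and 88.2 against 99.6. MYOCD (ENSGALG00000001021), or myocardin, the coactivator that switches on smooth muscle genes and no member of that list, was also above all 4, at 10.2 and 13.7 FPKM in wild type, 14.4 and 7.39 in the other treated libraries and 26.2 in lnc3500 knockdown (1.08, SE 0.36). Desmin, the gene DES, was the exception, at 407 and 221 against 394 FPKM. The 2 troponins of fast skeletal muscle were lower. TNNT3 had 2.66 and 2.64 FPKM in wild type and 0.427 in the knockdown library, and TNNC2 had 2.35 and 1.23 and was listed at 0. TNNT3 was below 1 FPKM in every treated library, so it passed the filter on mean FPKM only through wild type. TNNC2 averaged below 1 FPKM over the treated libraries and passed the filter in the same way. The summed muscle level was 2997 and 3555 FPKM in wild type and 5161 in the knockdown library, and the other treated libraries had 3558 and 3292.

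**Figure D3:**
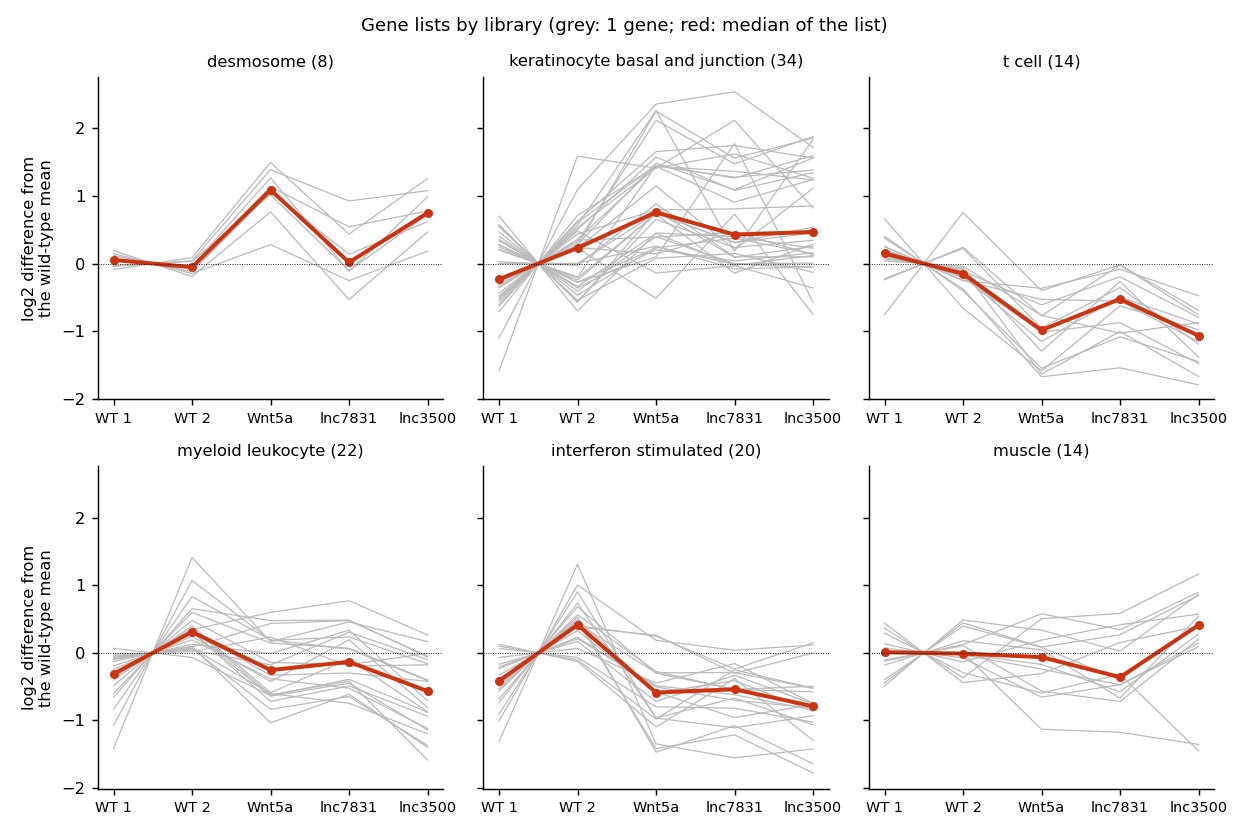
Log2 difference of each gene from the wild-type mean in all 5 libraries, for 6 lists (number of genes tested in brackets), on the median-centred log2(FPKM + 1) scale; lines join the values of 1 gene and imply no order of libraries. Grey lines are genes and the red line is the list median; the T cell median is lowest in the lnc3500 knockdown library, at -1.07, and the muscle median highest there, at 0.41.

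Matrix genes of the dermis were mixed. Of 33 tested, 2 were 2-fold or more above both wild types, 18 were above both by any amount and 5 below both. The median was 0.34, and it was 0.31 and 0.16 against libraries 1 and 2. TGFBI, a secreted protein that binds collagens and integrins, had 121 and 185 FPKM in wild type, 297 and 187 in Wnt5a overexpression and lnc7831 knockdown, and 460.5 in lnc3500 knockdown (1.61, SE 0.48). FBLN5, which helps to assemble elastic fibres, had 10.9 and 6.61 against 25.1 and was above all 4 other libraries. ELN, the elastin gene, had 41.6 and 64.2 against 66.9 FPKM, so it did not clear library 2 by much. The fibrillar collagen COL1A2 had 1616 and 1278 FPKM in wild type and 2442 in the knockdown library, but lnc7831 knockdown was higher, at 3169.7. CTHRC1, a secreted collagen-like protein, was on the lower side, at 196 and 123 against 80.0. Outside the list, LRRC15, a membrane protein of activated fibroblasts, had 15.3 and 51.4 FPKM in wild type and 105 in the knockdown library, with 46.8 and 44.8 in the others. HAPLN3, which links hyaluronan to proteoglycans, had 11.6 and 18.6 against 45.5. TNMD (ENSGALG00000006821), or tenomodulin, a membrane protein of tendon and ligament cells, had 35.3 and 19.8 FPKM in wild type, 32.4 and 15.2 in the other treated libraries and 93.0 in lnc3500 knockdown (1.78, SE 0.50). All 3 were more than 2-fold above each of the 4 other libraries.

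Genes that set the lnc3500 knockdown library apart from all 4 others were rare. At 2-fold, 12 genes (0.109%) were above every other library and 11 (0.0997%) were below. Of the 12 only 6 had a gene name and values above 0 throughout, and these were CACNG3, TNMD, RRAD, SLC35E4, HAPLN3 and LRRC15. CACNG3 (ENSGALG00000026103), an auxiliary subunit of calcium channels and glutamate receptors, was low in wild type at 2.01 and 1.51 FPKM, had 5.24 and 3.24 in Wnt5a overexpression and lnc7831 knockdown, and had 16.3 in lnc3500 knockdown (2.66, SE 0.34). RRAD, a small GTPase that inhibits calcium channels, had 4.75 and 3.09 FPKM in wild type and 18.4 in the knockdown library. SLC35E4, of the nucleotide sugar transporter family, had 0.876 and 12.8 against 47.9, with the wild types far apart. Just under the limit were VPAC2, a receptor for vasoactive intestinal peptide, at 0.753 and 1.35 against 3.44, and FGF10, at 24.7 and 29.0 against 51.7. On the lower side the 4 named genes above 0 throughout were RNase_MRP, WNT11, INHBB and ISG12(2). RNase_MRP, the RNA of a ribosomal RNA processing enzyme, had 59.5 and 42.1 FPKM in wild type, 39.8 and 43.9 in the others and 11.4 in lnc3500 knockdown. FPKM of such a short RNA rest on few fragments and on its length. Short of the 2-fold limit were FKBP1B, a partner of ryanodine receptors, at 12.6 and 10.7 against 4.47, and AP4S1, a vesicle adaptor subunit, at 2.88 and 1.49 against 0.373. Also short of it were TREML2, a leukocyte receptor, at 2.26 and 5.05 against 0.445, JSC at 149 and 105 against 54.9 and KLRG2 at 1.89 and 1.71 against 0.494. In lnc3500 knockdown AP4S1, TREML2 and KLRG2 were below 1 FPKM, where the unknown depth limits them. HIST1H2B7, a histone H2B gene, had 93.7 and 68.8 FPKM in wild type and 3.54 and 8.11 in the other treated libraries and was listed at 0 in lnc3500 knockdown. It is 1 of a family of near-identical copies.

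**Figure D4:**
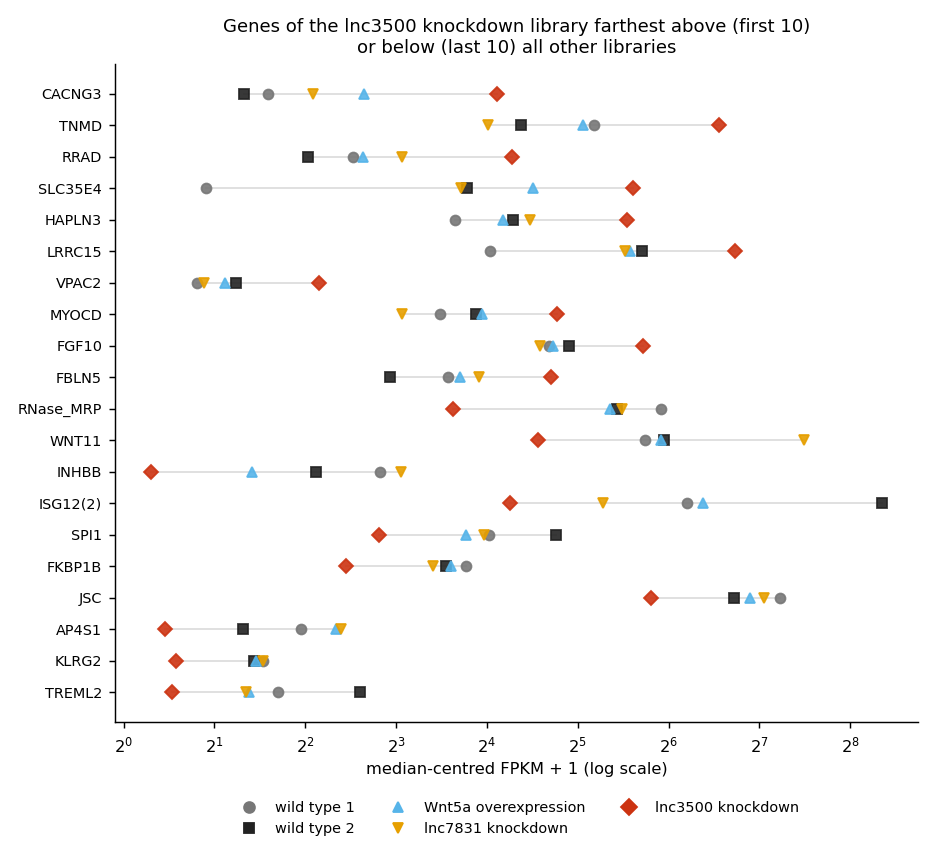
Median-centred FPKM + 1 (log2-spaced axis) in each of the 5 libraries for the 10 named genes with the largest distance above all other libraries in the lnc3500 knockdown library (upper 10) and the 10 with the largest distance below (lower 10). The red diamond is the knockdown library; it stands at the right end in the upper 10 and at the left end in the lower 10 by the choice of genes.

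Signalling genes of the follicle had differences in both directions. Of 12 WNT ligands tested 1 was 2-fold or more below both wild types. WNT11 (ENSGALG00000000839), a ligand of non-canonical signalling, had 52.6 and 60.7 FPKM in wild type, 22.6 in lnc3500 knockdown (-1.29, SE 0.37), 59.5 in Wnt5a overexpression and 179 in lnc7831 knockdown. The library lay below all others for WNT11, and the 2 knockdown libraries were at opposite ends. WNT5A had 39.5 and 82.0 FPKM in wild type and 36.7 in lnc3500 knockdown, also the lowest of the 5 but close to library 1. It had 65.0 in the library labelled Wnt5a overexpression, between the wild types, and was highest in lnc7831 knockdown, at 128. As deposited, WNT5A had 29.7 and 64.3 FPKM in wild type, 43.8 in lnc3500 knockdown and 75.7 in Wnt5a overexpression. Its rank in lnc3500 knockdown and in Wnt5a overexpression thus depended on the centring. WNT4, at 24.2 and 120.0 against 103, lay between the wild types. The median of the ligands was 0.13, and it was 0.53 and -0.40 against libraries 1 and 2, so the list has no direction of its own.

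Among 24 WNT receptors and antagonists 1 was 2-fold or more below both wild types and 0 above. SOSTDC1, a secreted antagonist of BMP and WNT, had 595 and 361 FPKM in wild type, 165 in lnc3500 knockdown (-1.49, SE 0.51), 141 in Wnt5a overexpression and 516 in lnc7831 knockdown. SFRP1, another secreted antagonist, was the highest of the 5 libraries, at 75.9 and 86.8 against 164. The receptor FZD2 was the highest too, at 13.2 and 43.9 against 58.5. RSPO3, a secreted amplifier of WNT signalling made by papilla cells, had 4.38 and 7.26 FPKM in wild type and 15.3 in the knockdown library. Of 26 papilla markers 0 passed 2-fold, 9 were above both wild types and 8 below both, with medians of 0.09 and -0.01 against libraries 1 and 2.

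The hedgehog ligand SHH, which patterns the barb ridges, had 5.70 and 10.7 FPKM in wild type, 2.60 in lnc3500 knockdown (-1.29, SE 0.47), 1.90 in Wnt5a overexpression and 20.7 in lnc7831 knockdown. PTCH1, its receptor and a target of the pathway, had 5.87 and 4.57 against 3.87 FPKM. The transducer SMO, at 19.6 and 32.3 against 46.5, and the co-receptor CDON, at 7.17 and 18.4 against 30.4, were both highest in the lnc3500 knockdown library. SHH was thus on the low side and PTCH1 slightly below both wild types, while SMO and CDON were on the high side. HHAT, another member of the list, had 1.52 and 1.37 against 3.13. None of the 13 hedgehog genes passed 2-fold from both wild types, 5 were above both and 4 below both. The list medians were 0.12 and -0.17 against libraries 1 and 2.

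Of 28 BMP, activin and TGF-beta genes 1 passed the rule. INHBB (ENSGALG00000028770), the beta B subunit of activins and inhibins, had 6.10 and 3.35 FPKM in wild type, 1.67 and 7.30 in Wnt5a overexpression and lnc7831 knockdown, and 0.236 in lnc3500 knockdown (-2.17, SE 0.47). That knockdown value is below 0.3 FPKM, where the unknown depth limits it, and the difference was -3.78 with a pseudocount of 0.1. LTBP2, a matrix protein of the latent TGF-beta binding family, was the highest of the 5 libraries, at 14.9 and 23.6 against 40.3. The median of the list was -0.02. Of 18 FGF genes 1 passed the rule, the receptor FGFR3, which had 36.4 and 30.8 FPKM in wild type and 14.7 in the knockdown library (-1.13, SE 0.35), with 20.6 and 53.8 in the other treated libraries. FGF10, a ligand that mesenchyme sends to epidermis, had 24.7 and 29.0 FPKM in wild type, 25.5 and 23.0 in the others and 51.7 in lnc3500 knockdown (0.92, SE 0.35). The other 4 libraries lay close together for FGF10.

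Of 18 Notch genes 1 passed the rule, and the list median was 0.37 and 0.05 against libraries 1 and 2. NRARP, a target and feedback inhibitor of Notch, had 37.5 and 90.3 FPKM in wild type, 167 and 223 in Wnt5a overexpression and lnc7831 knockdown and 194 in lnc3500 knockdown, so all treated libraries were above both wild types. NOTCH1, the receptor, had 8.72 and 18.4 against 30.1 FPKM. Of 12 retinoic acid genes and 6 ectodysplasin genes 0 passed the rule. The retinoic acid median was 0.02 and 0.04 against libraries 1 and 2, and the ectodysplasin median -0.01 and -0.18. The ectodysplasin receptor gene Edar had 8.98 and 9.30 FPKM in wild type and 5.48 in the knockdown library, and EDA2R, a receptor for the other ectodysplasin isoform, had 5.75 and 14.9 against 25.1.

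**Figure D5:**
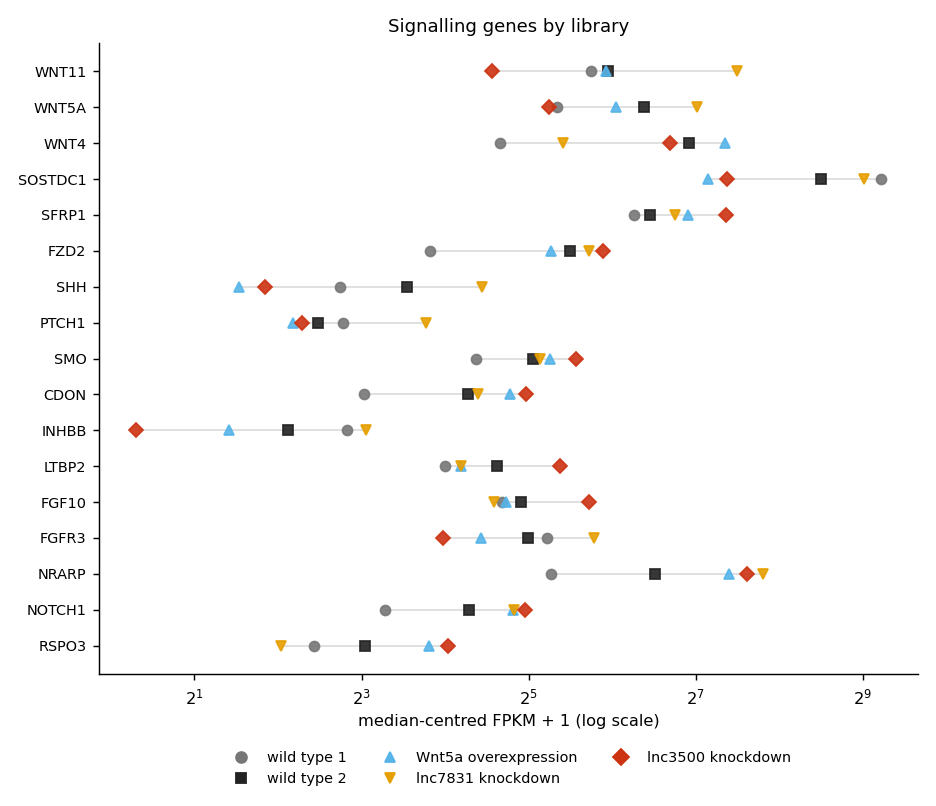
Median-centred FPKM + 1 (log2-spaced axis) of 17 signalling genes in each of the 5 libraries. WNT11 and INHBB are lowest in the lnc3500 knockdown library (red diamond), and FGF10, LTBP2, SFRP1 and SMO are highest there.

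Immediate early genes, which respond within minutes to growth factors, stress and stretch, had 13 of 23 members above both wild types and 8 above all 4 other libraries. NR4A3 (ENSGALG00000013568), an orphan nuclear receptor, had 4.54 and 5.33 FPKM in wild type, 18.0 and 18.8 in Wnt5a overexpression and lnc7831 knockdown, and 32.3 in lnc3500 knockdown, a difference of 2.49 (SE 0.32). CTGF, a secreted matricellular protein, had 207 and 239 against 485 FPKM and was likewise the highest of the 5. MAFF, a small transcription factor, had 30.6 and 39.7 against 78.1. SRF, the partner of myocardin, had 16.6 and 34.5 against 41.9. EGR1 went the other way, at 113 and 70.4 against 43.8, and FOS, at 195 and 471 against 219, lay between the wild types. DUSP8, a phosphatase of stress kinases outside the list, had 15.4 and 14.2 against 49.0.

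Of 24 endothelial genes 1 passed the rule, and it is a growth factor rather than a marker of endothelium. PGF (ENSGALG00000026557), placental growth factor, had 8.59 and 12.99 FPKM in wild type, 59.6 in lnc3500 knockdown (2.39, SE 0.41), 50.2 in Wnt5a overexpression and 15.8 in lnc7831 knockdown. The endothelial adhesion genes CDH5, at 24.6 and 30.3 FPKM in wild type against 23.9, and PECAM1, at 46.4 and 56.3 against 44.6, lay below both wild types by a small margin, and the VEGF receptor KDR was at 5.99 and 5.78 against 4.50. The list as a whole was not on the low side as CDH5, PECAM1 and KDR were. Of the 24 genes 8 were above both wild types and 6 below both, and 14 were above the wild-type mean and 10 below it. Above every other library were 5, and 1 was below every other. The median of the list was 0.23, with 0.34 and -0.10 against wild-type libraries 1 and 2.

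Glycolysis and hypoxia genes had 17 of 29 members above both wild types, 3 below both and a median of 0.34. PGAM1, a glycolytic mutase, had 449.6 and 606 FPKM in wild type, 1353 and 831 in Wnt5a overexpression and lnc7831 knockdown and 1495 in lnc3500 knockdown (1.52, SE 0.45). CA9, a carbonic anhydrase induced by hypoxia, had 37.3 and 96.9 against 212 FPKM. The glucose transporter SLC2A1 had 33.8 and 39.9 against 77.6, whereas GAPDH, at 2850.3 and 1872 against 2906, was not above both by more than 0.03 log2 units. Of 14 genes in the list of serine, one-carbon and ATF4 genes 7 were above both wild types and 1 below both. The list median was 0.58, beside 0.71 in Wnt5a overexpression and -0.09 in lnc7831 knockdown. PHGDH, the first enzyme of serine synthesis, had 3.95 and 2.61 FPKM in wild type, 17.8 and 25.4 in the others and 19.1 in lnc3500 knockdown (2.25, SE 0.36). All treated libraries were above both wild types for PHGDH.

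Lipid genes differed between the wild types, by a median of -0.66 over 32 genes from library 1 to library 2. THRSP, an activator of fatty acid synthesis, has 2 entries that may share reads. The one past the rule (ENSGALG00000017267) had 156 and 9.98 FPKM in wild type, 0.452 and 48.9 in Wnt5a overexpression and lnc7831 knockdown and 1.58 in lnc3500 knockdown. Its SE was 1.75, the wild types themselves being 3.84 log2 units apart, and the other entry had 303 and 111 FPKM against 297, so the entries give no direction for the gene. ELOVL3, an elongase of very long chain fatty acids, had 3.87 and 3.11 against 9.68, and was lowest in lnc7831 knockdown, at 0.360. EBP, an isomerase of sterol synthesis, had 103 and 110.5 against 257, with higher values in both other treated libraries. HSD3B2, a steroid hormone enzyme, had 0.159 and 6.67 against 31.2. The fatty acid list had medians of -0.24 and 0.34 against libraries 1 and 2, and the sterol list -0.13 and 0.32. Of 12 pigment cell genes 0 passed the rule, 5 were below both wild types and 1 above both. The rule for lists without such members gave Pomc and KIT. Pomc had 44.5 and 4.01 FPKM in wild type, 2.15 in lnc3500 knockdown and 166 in lnc7831 knockdown. KIT had 3.42 and 2.85 FPKM in wild type and 1.95 in lnc3500 knockdown. The pigment enzyme TYR, chosen after its values were seen, had 2.103 and 0.493 FPKM in wild type and 0.186 in the knockdown library. Unknown depth limits such low TYR values. MT4, a metallothionein, had 6635 and 2134 against 1426 FPKM. GPX2, an epithelial glutathione peroxidase, was the gene of the redox list past the rule, at 2.67 and 4.04 against 14.4.

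Of 38 patterning factors 5 were 2-fold or more below both wild types, all HOXA entries. HOX genes encode the transcription factors that give body regions their identity. An entry of HOXA3, 2 of HOXA7 and 1 of HOXA6 were above 0 in both wild types and listed at 0 in all 3 treated libraries. A further HOXA6 entry had 4.36 and 4.84 FPKM in wild type and 0.423, 0.617 and 0.530 in the Wnt5a, lnc7831 and lnc3500 libraries. The remaining HOXA7 entry (ENSGALG00000026989) had 28.7 and 25.0 FPKM in wild type and 19.5 in lnc3500 knockdown, so the gene as a whole was not absent. Entries of one name may share reads, and no source used here says how they were divided. These values therefore give no direction for HOXA3, HOXA6 or HOXA7.

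Lists of general cell functions had medians near 0 against the wild-type mean, but several lay on opposite sides of the 2 wild types. Against libraries 1 and 2 the medians were -0.26 and 0.18 for cell cycle, -0.36 and 0.17 for heat shock, -0.24 and 0.19 for ribosomal protein, -0.25 and 0.04 for respiratory chain and -0.11 and 0.14 for proteasome genes. Against the mean, the 50 cell cycle genes had a median of -0.06 with 0 past 2-fold, 28 heat shock genes -0.08 with 0, and 45 respiratory chain genes -0.15 with 1, NDUFB3, a subunit of complex I (141 and 127 against 62.8 FPKM). The 61 ribosomal protein genes had a median of -0.01, and 2 passed the rule in opposite directions, RPS17L (24009 and 16302 against 55666) and RPS29 (4973 and 2951 against 1266). Ribosomal protein genes have near-identical copies, so these are uncertain. Of 29 proteasome genes 2 were below both by 2-fold. PSMD4, a ubiquitin receptor of the proteasome, had 62.3 and 56.4 FPKM in wild type and 2.03, 0 and 2.61 in the Wnt5a, lnc7831 and lnc3500 libraries, and PSMD12 had 46.0 and 32.3 against 13.4. The low PSMD4 values were common to every treated library, and its 0 may stand for a failed estimate. The median of the proteasome list was -0.01. The 22 basement membrane genes had medians of 0.62 and -0.10 against libraries 1 and 2, and their member past the rule was ITGA6, described above with the keratinocyte genes. COL17A1, a collagen of hemidesmosomes, had 18.8 and 89.4 FPKM against 138 and stayed under the limit from library 2. No gene passed it among 31 matrix proteases (medians 0.02 and 0.13 against libraries 1 and 2), 17 genes of beta-catenin and its targets (0.19 and -0.08), 12 adipocyte genes (-1.01 and 0.23) and 9 Schwann cell and neural genes (-0.26 and -0.27). HBG2, the tested red blood cell gene, had 16.8 and 13.5 FPKM against 22.3.

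Several of the largest differences were common to the 3 treated libraries, which all shared the wild types they were compared with. ATP12A, a proton pump of epithelia, had 0.112 and 2.80 FPKM in wild type, 40.8 and 25.1 in Wnt5a overexpression and lnc7831 knockdown and 25.1 in lnc3500 knockdown. PDZK1IP1, a membrane protein of epithelial cells, had 2.15 and 5.68 FPKM in wild type against 26.5, 26.7 and 29.95 in the same order. On the lower side the skeletal tropomodulin gene skTmod had 7.31 and 13.8 FPKM in wild type against 0.213, 0.103 and 0.251. SELENBP1, a selenium-binding protein, has 2 entries, with 10.3 and 12.4 FPKM in wild type against 1.29, 0.337 and 0.788 for one and 13.9 and 18.4 against 3.16, 4.97 and 5.62 for the other. DOLK, the dolichol kinase of protein glycosylation, also has 2, one at 3.20 and 3.79 FPKM in wild type and 0.140 in lnc3500 knockdown and the other at 3.35 and 3.98 and listed at 0. The entries of each gene lay the same way, and reads may be shared between them. OTULIN, a deubiquitinase of linear ubiquitin chains, had 6.88 and 6.42 against 0.155, 1.51 and 0.393. The wild types were within 0.09 log2 units of each other for OTULIN. The magnesium transporter SLC41A2 had 3.61 and 3.28 FPKM in wild type against 0.0478, 0.0446 and 0.0377, and HIST1H111R, a linker histone gene, 12.5 and 7.87 against 3.01, 1.89 and 1.51. SCARNA7, a small RNA that guides modification of spliceosomal RNA, had 28.4 and 66.3 against 14.1, 7.69 and 6.68. All 3 treated libraries were below both wild types for SLC41A2, HIST1H111R and SCARNA7. For skTmod, SLC41A2 and the DOLK entry at 3.20 and 3.79 FPKM in wild type, every treated library was below 1 FPKM. OTULIN and the SELENBP1 entry at 10.3 and 12.4 FPKM in wild type averaged below 1 FPKM over the treated libraries. These entries passed the filter on mean FPKM only through wild type, so their low place was largely fixed beforehand. MSLN, SOUL and TGM4 differed among the treated libraries. MSLN, or mesothelin, had 1.60 and 0.768 FPKM in wild type, 8.64 and 7.17 in Wnt5a overexpression and lnc3500 knockdown and 2.27 in lnc7831 knockdown. The heme-binding gene SOUL had 0.0438 and 2.23 FPKM in wild type, 34.2 in Wnt5a overexpression, 11.5 in lnc3500 knockdown and 0.585 in lnc7831 knockdown, inside the wild-type range. As deposited, MSLN and SOUL averaged below 1 FPKM in wild type, so they passed the filter on mean FPKM only through treated libraries. Their high place was thus partly fixed beforehand. The transglutaminase gene TGM4 had 5.47 and 6.06 FPKM in wild type, 0.715 and 0.700 in Wnt5a overexpression and lnc3500 knockdown and 3.72 in lnc7831 knockdown.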

How the data were processed

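RNA was profiled in 5 libraries of chicken wing feather follicles, each from 5 pooled follicles. The authors deposited 1 table of FPKM per gene, made with TopHat2 2.1.0 and Cufflinks 2.2.1 on galGal4, per the submitters' processing notes. Strand use, scaling between libraries and the handling of reads that map to several places are not given in the sources used here. Counting intervals cannot be had from FPKM. Values below 0.3 FPKM lie on common steps for many genes, which put the worth of 1 fragment in wild-type library 1 at 0.895 times that in library 2 (63.8% of 511 low genes on steps). In lnc3500 knockdown it was 0.841 times that in Wnt5a overexpression (61.5% of 408). Between wild type and knockdown the steps were not resolved (26.2% and 27.4%, beside 16.0% and 15.4% at other offsets), and the absolute depth is unknown.

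Gene names come from the table, which pairs 13736 of 17108 identifiers with one. No chromosome coordinates or sequences were used. Groups follow the labels. The centring factors were 0.751 and 0.784 for wild type, 1.19 for lnc3500 knockdown, 1.16 for Wnt5a overexpression and 1.26 for lnc7831 knockdown. The pseudocount was 1. limma 3.58.1 in R 4.3.3 was fitted to all 5 libraries with a mean-variance trend, two-sided, with Benjamini-Hochberg adjustment over 11031 genes. Its 1 residual degree of freedom comes from the wild types, and the lone knockdown library is assumed to vary like them. Variance borrowed across genes counts as 2.70 further degrees of freedom. Nothing says that the wild-type repeats came from separate birds, so the spread may be technical. The limma step and the size rule were tested on simulated data. There the knockdown library was given the same variance as wild type, so the simulation cannot check that assumption. Tables and figures were made with pandas 2.3.3 and matplotlib 3.10.9 in Python 3.11.15.

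The comparison, the gene lists and the rules were chosen with earlier results of these data known. Named genes are ACTB, GAPDH and WNT5A, the 15 genes in each direction farthest from the nearer wild type, the 10 in each direction farthest from the nearest of the 4 other libraries (both among named genes above 0 in all libraries), and list members past 2-fold. For a list without such members, the 2 genes with the largest differences from the nearer wild type were taken, such as SHH and HHAT. Other genes, such as the smooth muscle genes, C1QA, TP63, WNT4, SMO, SFRP1 and HIST1H2B7, were chosen after their values were seen. Lists overlap in some members. Alternatives covered the scaling, the pseudocount, the filter, the fold, the fit and each wild type alone.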

Additional observations from a re-analysis of the deposited data

How the results depend on the processing

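Genes 2-fold or more above both wild types numbered 158, and those below both 181. With values as deposited they were 901 and 87, with a pseudocount of 5 they were 75 and 66, at 1.5-fold 579 and 476, and at 4-fold 26 and 59. Against a single wild type, the higher count was 346 to 1008 and the lower count 451 to 476. The lower count was 301 with a pseudocount of 0.1 and 97 with a mean of at least 5 FPKM. Counts against all 4 other libraries, 12 above and 11 below, were 4 and 3 with a pseudocount of 5 and 7 and 6 among genes above 0 in all libraries, and the lower count was 50 with a pseudocount of 0.1 and 7 with a mean of at least 5 FPKM. limma called 2 genes with upper-quartile scaling, the microRNA gene gga-mir-3523 and ENSGALG00000028989, both listed at 0 in both wild types. They were called higher, with a smallest adjusted p of 0.0185, and 0 genes were called in the other fits, whose smallest adjusted p ranged from 0.0882 to 0.999. The cause of these differences was not tested. The limma fit without a wild-type library could not be made, since no residual degree of freedom remains. With values as deposited, where the median difference over all genes was 0.56, 17 of 42 list medians changed sign, among them the myeloid one, from -0.56 to 0.059, and 34 medians besides the myeloid one lay beyond the wild-type spread from their centred value. Of 20 lists below 0 after centring 3 stayed below, T cell (-0.53), B cell (-0.57) and interferon-stimulated genes (-0.21). Against wild type 1 or 2 alone 32 and 31 kept within the wild-type spread. All 114 named-gene differences stayed within the wild-type spread against either wild type alone, which follows from how that spread is defined. The counts that leave out entries sharing a name, 156 above and 156 below, were added after seeing the data. No paired analysis was possible because the lnc3500 knockdown has 1 library and shares fewer than 2 replicate numbers with wild type. Unknown depth limits all genes under about 1 FPKM.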
